A study of Oryza sativa with 12 samples.

Results

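MFT2, GLU15, CIPK6 and TUB8 are 4 rice genes with higher signals in stem bases of the mutant crown rootless 1 (crl1) than in those of wild type at each of 3 sampling times. They were matched by symbol or synonym, and each has 1 probe set, so 4 of the 17905 single genes on the array are described here. All 4 probe sets passed the signal filter that kept 32524 of 57194 rice probe sets. The genes were chosen by their measured difference between the genotypes over all 3 times on these same arrays, so that difference is given as a description with no test. Changes with time averaged over the genotypes, differences between repetitions, relatives and chromosomal neighbours did not enter the choice. Changes with time inside a genotype, and their difference between the genotypes, use the values at each time that did enter it. Tests of those are therefore not fully independent of the choice.

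The tissue was the stem base, the zone at the foot of the shoot where crown roots arise, taken from rice (Oryza sativa, cultivar Taichung 65) seedlings 8 days old. The 6 groups of 2 arrays were crl1 before auxin and at 2 h and 4 h after it, and wild type at the same times. Seedlings grew in half-strength Murashige and Skoog medium, and indole-3-acetic acid, the main natural auxin, was added to 1e-06 M. Each RNA extract held 20 stem bases, and the series describes 2 independent repetitions of the experiment. No later untreated seedlings were analysed here, so in any change with time the effect of auxin and of the elapsed hours cannot be told apart. In a pooled stem base, fewer cells of a type and less RNA per cell cannot be told apart. The level of CRL1 itself was not analysed here, so the genotype labels were not checked at the mutated gene.

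As background, CRL1 encodes a transcription factor of the LBD family that acts downstream of auxin response factors, and plants that lack its function form no crown roots. MFT2 belongs to the phosphatidylethanolamine-binding proteins, the family of the flowering signal FT, and its MOTHER OF FT branch is known in rice from seeds, where it acts in the abscisic acid control of germination. GLU15 is named as an endoglucanase of glycoside hydrolase family GH9, enzymes that cut glucans of the cell wall. CIPK6 is a CBL-interacting protein kinase, a class that calcineurin B-like calcium sensors bind and activate. TUB8 is a β-tubulin, a subunit of microtubules, known in rice from anthers.

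Wild type 2 h repetition 2 stood apart from the other arrays, with hybridisation controls averaging 3254, beside 1109 to 1711 elsewhere, an 18S rRNA signal of 556, beside 3399 to 5290, and a mean correlation of 0.904 with the rest, beside 0.935 to 0.949. The ratio of 3′ to 5′ probe sets for GAPDH, a sign of RNA quality, also moved with the groups. In 1 of the 2 GAPDH sets it was 27.7 and 28.5 in crl1 and 10.9 and 5.21 in wild type at 0 h. It was 2.28 and 4.07 in crl1 and 32.3 and 23.0 in wild type at 2 h, and 11.5 and 2.55 in crl1 and 3.37 and 1.43 in wild type at 4 h. The second set was at 3.08 and 8.72 in crl1 and 9.41 and 17.3 in wild type at 0 h, and lay between 3.84 and 8.34 on the later arrays except wild type 2 h repetition 2, at 35.6. At 0 h the 2 sets thus ran in opposite directions between the genotypes. The part of these differences in the genotype differences was not tested.

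MFT2 (LOC4326145, chromosome 1) showed the widest gap. Its MAS5 signals, the authors' array intensities, in crl1 were 57.3 and 274 at 0 h, 94.3 and 153 at 2 h and 110 and 196 at 4 h, for repetitions 1 and 2 in that order. In wild type they were 3.25 and 2.28 at 0 h, 13.3 and 0.749 at 2 h and 3.87 and 11.9 at 4 h. Every crl1 array lay above every wild-type array, and the lowest crl1 value exceeded the highest wild-type value by a wide margin. The array carries 64 reporter probe sets whose targets rice lacks, and their 95th percentile, which ran from 5.83 to 18.5, was taken as background. By that measure MFT2 was at or below background on both wild-type arrays at 0 h and on 1 of 2 at 2 h and at 4 h, and above it on 6 of 6 crl1 arrays. Its signal was therefore at least 16.3-fold higher in crl1 at 0 h. With wild-type arrays raised to their background where they lay below it, the ratios were 7.66 at 2 h and 14.1 at 4 h. The fitted log2 difference, crl1 minus wild type, was 5.52 ± 1.14 at 0 h, 5.25 ± 1.14 at 2 h and 4.44 ± 1.14 at 4 h (SE, n = 2 arrays per group), and 5.07 ± 0.66 averaged over the times (n = 6 arrays per genotype). These fitted values rest on wild-type signals at or below background on 4 of 6 arrays and are no measured folds. The lowest of these signals, 0.749, came from the array that stood apart, and without it the 2 h difference was 3.17. After 16 was added to every signal the average was 2.79.

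GLU15 (LOC4345463, chromosome 8) was the gene in which single arrays of the genotypes came closest. Its signals in crl1 were 268 and 366 at 0 h, 130 and 322 at 2 h and 234 and 333 at 4 h. In wild type they were 69.2 and 74.2 at 0 h, 86.6 and 88.5 at 2 h and 64.1 and 123 at 4 h. The low crl1 array, 2 h repetition 1, and the high wild-type array, 4 h repetition 2, differed by a small step, while within each time both crl1 arrays lay clearly higher. The mean ratio of crl1 to wild type was 4.37 at 0 h, 2.33 at 2 h and 3.14 at 4 h, with log2 differences of 2.13, 1.22 and 1.65 (SE 0.42 each, n = 2 arrays per group) and 1.67 ± 0.24 on average. Without crl1 2 h repetition 2 the 2 h difference was 0.57, and without crl1 2 h repetition 1 it was 1.88. The probe set carries the suffix that Affymetrix gives where some probes match other transcripts, so signal of related genes may be included.

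CIPK6 (LOC4345687, chromosome 8) had crl1 signals of 434 and 368 at 0 h, 505 and 257 at 2 h and 519 and 359 at 4 h. Its wild-type signals were 119 and 228 at 0 h, 174 and 191 at 2 h and 114 and 137 at 4 h. The genotypes did not overlap, and their nearest arrays were crl1 2 h repetition 2 and wild type 0 h repetition 2. The ratio of crl1 to wild type was 2.42 at 0 h, 1.97 at 2 h and 3.46 at 4 h, which is a log2 difference of 1.28, 0.98 and 1.79 (SE 0.36 each, n = 2 arrays per group) and 1.35 ± 0.21 on average. Leaving out 1 array moved the 0 h difference to between 0.81 and 1.74, the ends coming without wild type 0 h repetition 1 and 2. The 2 h difference was 0.49 without crl1 2 h repetition 1 and 1.47 without repetition 2.

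TUB8 (LOC4333632, chromosome 3) had the smallest gap in fold and the least scatter. Its signals in crl1 were 885 and 938 at 0 h, 948 and 1185 at 2 h and 948 and 989 at 4 h. In wild type they were 551 and 743 at 0 h, 602 and 681 at 2 h and 430 and 512 at 4 h. All 6 crl1 arrays lay above all 6 wild-type arrays, and the low wild-type pair was that of 4 h. The ratio of crl1 to wild type was 1.42 at 0 h, 1.66 at 2 h and 2.06 at 4 h, with log2 differences of 0.51, 0.73 and 1.05 (SE 0.21 each, n = 2 arrays per group) and 0.76 ± 0.12 on average. The 0 h difference was 0.29 without wild type 0 h repetition 1 and 0.73 without repetition 2. On wild type 2 h repetition 2, the array that stood apart, the GLU15, CIPK6 and TUB8 signals were 1.02, 1.10 and 1.13 times those of wild type 2 h repetition 1.

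**Figure D1:**
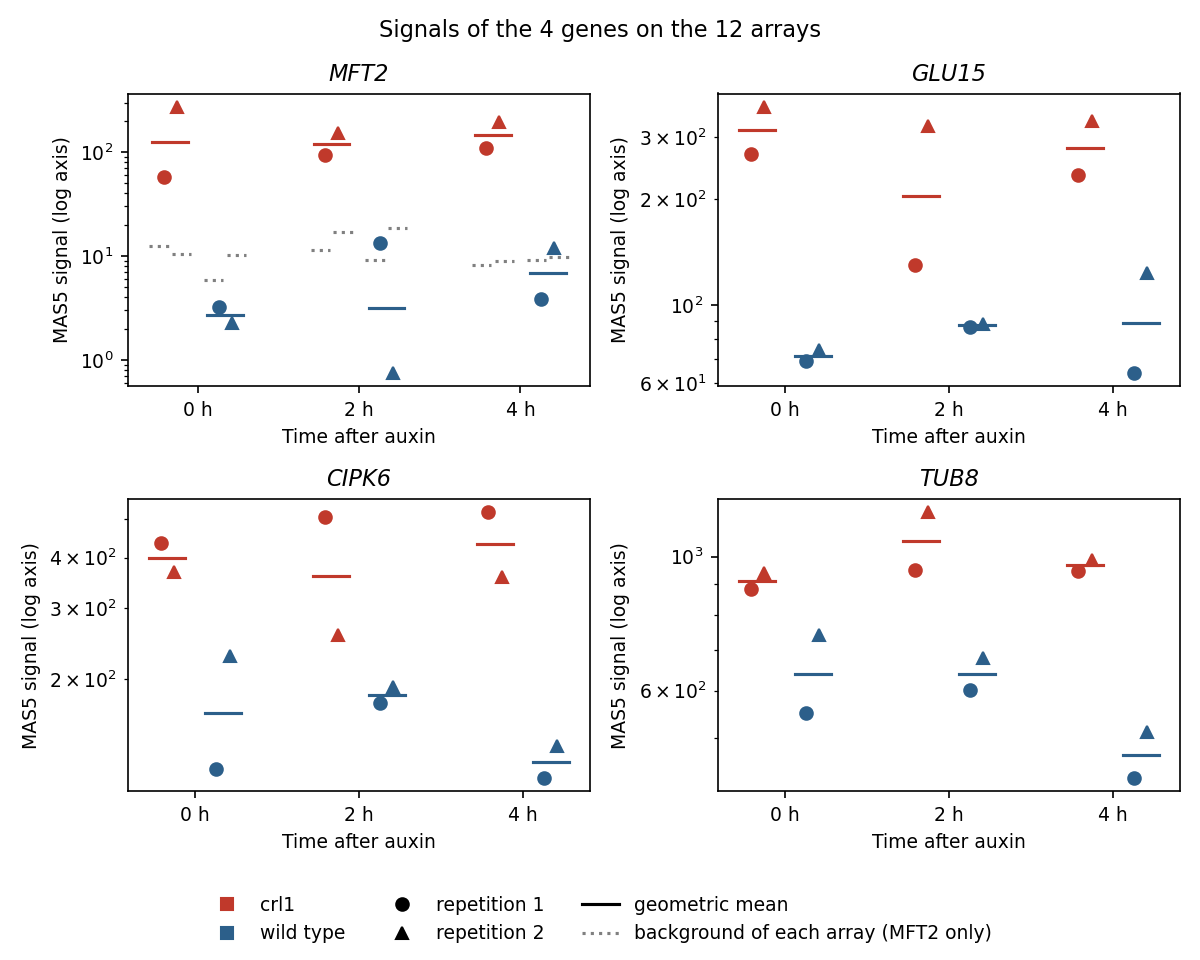
MAS5 signal (log axis) of each gene on the 12 arrays by time after auxin in hours, crl1 in red left of wild type in blue, circles for repetition 1, triangles for repetition 2 and bars for the geometric mean of 2 arrays. Red points lie above blue points in every panel. In the MFT2 panel the dotted lines mark the background of each array, 5.83 to 18.5. Both blue points at 0 h and 1 of 2 at 2 h and at 4 h lie below their lines, and the point at 0.749 lies far below.

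All 6 crl1 arrays lay above all 6 wild-type arrays in 4 of the 4 genes, as they did in 0.935% of the 32524 kept probe sets. Both crl1 arrays lay above both wild-type arrays at each time in 2.56% of them. Since this pattern is what the genes were chosen for, nothing is read from that count. Ranked from the highest averaged difference downward, GLU15 was number 122, CIPK6 number 278 and TUB8 number 1525 of the 32524 kept probe sets. Among the 2862 of these whose gene has a name of its own they were numbers 7, 14 and 97, so other named genes lie between them. MFT2 has no measured fold and is given no place, and the values of other probe sets near background enter the ranking as they are.

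All 4 genes shared the split of the 6 groups by genotype, which is what they were chosen for. In each gene the 3 crl1 groups took the 3 highest places by mean signal and the 3 wild-type groups the 3 lowest. MFT2 and GLU15 had the same order of all 6 groups, from highest crl1 at 0 h, 4 h and 2 h, then wild type at 4 h, 2 h and 0 h. The wild-type signals of MFT2 in that order were mostly at background. The highest group was crl1 0 h for MFT2 (165 ± 153, SD, n = 2) and GLU15 (317 ± 68.7), crl1 4 h for CIPK6 (439 ± 113) and crl1 2 h for TUB8 (1067 ± 167). The lowest was wild type 0 h for MFT2 (2.77 ± 0.685) and GLU15 (71.7 ± 3.58), and wild type 4 h for CIPK6 (125 ± 16.4) and TUB8 (471 ± 58.1). Neighbouring groups within a genotype differed by less than the larger of their SDs, with 3 exceptions. GLU15 in wild type was at 87.6 ± 1.31 at 2 h, against 71.7 at 0 h. TUB8 in crl1 was at 968 ± 28.7 at 4 h, against 912 ± 38.0 at 0 h, and in wild type at 471 at 4 h, against 641 ± 55.6 at 2 h. At the step from the lowest crl1 group to the highest wild-type group the arrays did not overlap in any of the 4 genes, although for GLU15 the step of 132 was smaller than the SD of 136 in crl1 at 2 h.

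Spread among the 6 arrays of a genotype differed between the genes. The coefficient of variation in crl1 was 53.1% for MFT2, 31.1% for GLU15, 24.4% for CIPK6 and 10.7% for TUB8. In wild type it was 90.4% for MFT2, whose signals there were mostly at background, 25.4% for GLU15, 28.0% for CIPK6 and 19.4% for TUB8. The SD of log2 signal within groups was 1.48 for MFT2, 0.51 for GLU15, 0.43 for CIPK6 and 0.18 for TUB8. The gene with the widest gap thus had the widest scatter, and TUB8, with the narrowest gap, the smallest.

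Within each array the place of a gene among all rice probe sets gives its level without a scale. The median percentile of MFT2 was 77.9 in crl1 and 33.7 in wild type, and that of GLU15 was 87.9 in crl1 and 72.4 in wild type. CIPK6 stood at a median percentile of 90.8 in crl1 and 80.0 in wild type, and TUB8 at 96.6 in crl1 and 93.8 in wild type. Signals of different probe sets depend on their probes, and levels were not compared between the genes.

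The ratio of crl1 to wild type was also taken inside each repetition. For MFT2, 4 of the 6 ratios divide by a wild-type signal below background, which was then raised to the background of its array. Its ratio was at least 9.83 in repetition 1 and at least 27.1 in repetition 2 at 0 h, 7.07 and at least 8.29 at 2 h, and at least 12.1 and 16.4 at 4 h. For GLU15 it was 3.88 and 4.92 at 0 h, 1.5 and 3.63 at 2 h and 3.64 and 2.70 at 4 h. All ratios of the 4 genes were above 1, and neither repetition gave the higher ratio at every time for GLU15. For CIPK6 it was 3.63 and 1.62 at 0 h, 2.89 and 1.34 at 2 h and 4.57 and 2.62 at 4 h, so that repetition 1 gave the higher ratio at all 3 times. For TUB8 it was 1.61 and 1.26 at 0 h, 1.58 and 1.74 at 2 h and 2.21 and 1.93 at 4 h.

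**Figure D2:**
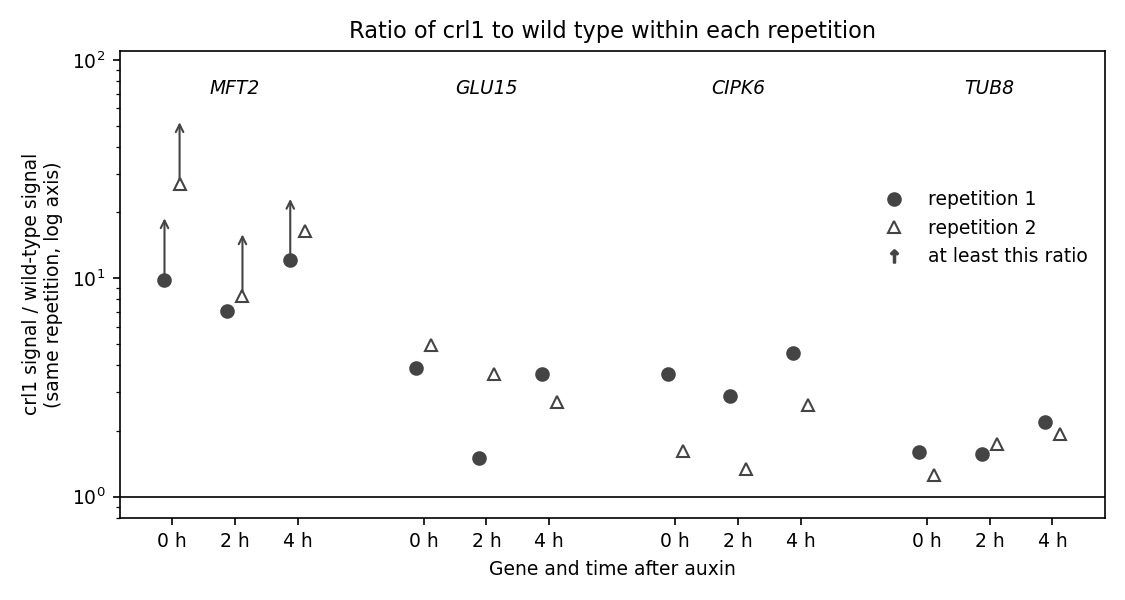
Ratio of the crl1 signal to the wild-type signal of the same repetition (log axis) for each gene at 0 h, 2 h and 4 h after auxin, filled circles for repetition 1 and open triangles for repetition 2, with a line at a ratio of 1. Arrows mark the 4 MFT2 ratios that are lower bounds, since the wild-type signal was below background. All points lie above the line, down to 1.26 for TUB8 at 0 h in repetition 2.

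The repetitions split the genes in another way. In crl1, repetition 2 was above repetition 1 at all 3 times for MFT2, GLU15 and TUB8, and below it at all 3 times for CIPK6. In wild type, repetition 2 was above repetition 1 at all 3 times for GLU15, CIPK6 and TUB8. CIPK6 was the gene in which the 2 repetitions ordered themselves oppositely in the 2 genotypes. With repetition as a term in the model, repetition 2 minus repetition 1 was 0.56 ± 0.17 log2 for GLU15 (SE, limma adjusted p = 0.141), 0.22 ± 0.10 for TUB8 (0.232), 0.13 for MFT2 (0.933) and -0.07 for CIPK6 (0.879). No member passed, and 0.00307% of the kept probe sets did.

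The next question was whether the 4 genes moved after auxin. None passed the test in any of the 44 comparisons with time (limma, 11 per gene), with adjusted p from 0.413 to 1 and no unadjusted p below 0.05 (the lowest was 0.0543). With repetition as a block 0 of 44 passed (lowest adjusted p = 0.247), and 4 had an unadjusted p below 0.05, all of them for TUB8. In crl1 0.04% of the kept probe sets passed at 2 h against 0 h and 0.0154% at 4 h against 0 h, and in wild type 0.00307% at 2 h and 0.0184% at 4 h. Between 4 h and 2 h the shares were 0.0277% in crl1 and 0.0338% in wild type. Averaged over the genotypes 0.126% passed at 2 h against 0 h, 0.455% at 4 h against 0 h and 0.925% at 4 h against 2 h. With such shares, 4 genes without a call are near the background.

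The intervals show how much change the data leave room for. Between 4 h and 0 h the log2 change of MFT2 was 0.23 in crl1 (95% interval -2.28 to 2.75), so a several-fold change in either direction was not detectable there. In wild type no change of MFT2 is given, since both arrays at 0 h and 1 of 2 at each later time were at or below background. That of GLU15 was -0.17 in crl1 (-1.09 to 0.75) and 0.31 in wild type (-0.61 to 1.23). For CIPK6 it was 0.11 in crl1 (-0.69 to 0.91) and -0.40 in wild type (-1.21 to 0.40). TUB8 had the narrowest intervals, with 0.09 in crl1 (-0.37 to 0.55) and -0.45 ± 0.21 in wild type (-0.91 to 0.01, adjusted p = 0.736). With repetition as a block that wild-type interval was -0.81 to -0.08 (adjusted p = 0.43).

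At 2 h against 0 h the changes were of like size. MFT2 was at -0.06 in crl1 (-2.58 to 2.46). GLU15 was at -0.62 in crl1 (-1.54 to 0.30) and 0.29 in wild type (-0.63 to 1.21), where the crl1 value was 0.04 without crl1 2 h repetition 1. CIPK6 was at -0.15 in crl1 (-0.95 to 0.65) and 0.15 in wild type (-0.66 to 0.95), and TUB8 at 0.22 in crl1 (-0.24 to 0.68) and near 0 in wild type (-0.46 to 0.46). Between 4 h and 2 h the change of TUB8 in wild type was -0.45 (-0.91 to 0.01, adjusted p = 0.413). With repetition as a block the unadjusted p of that change was 0.0211 and the adjusted p 0.247.

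**Figure D3:**
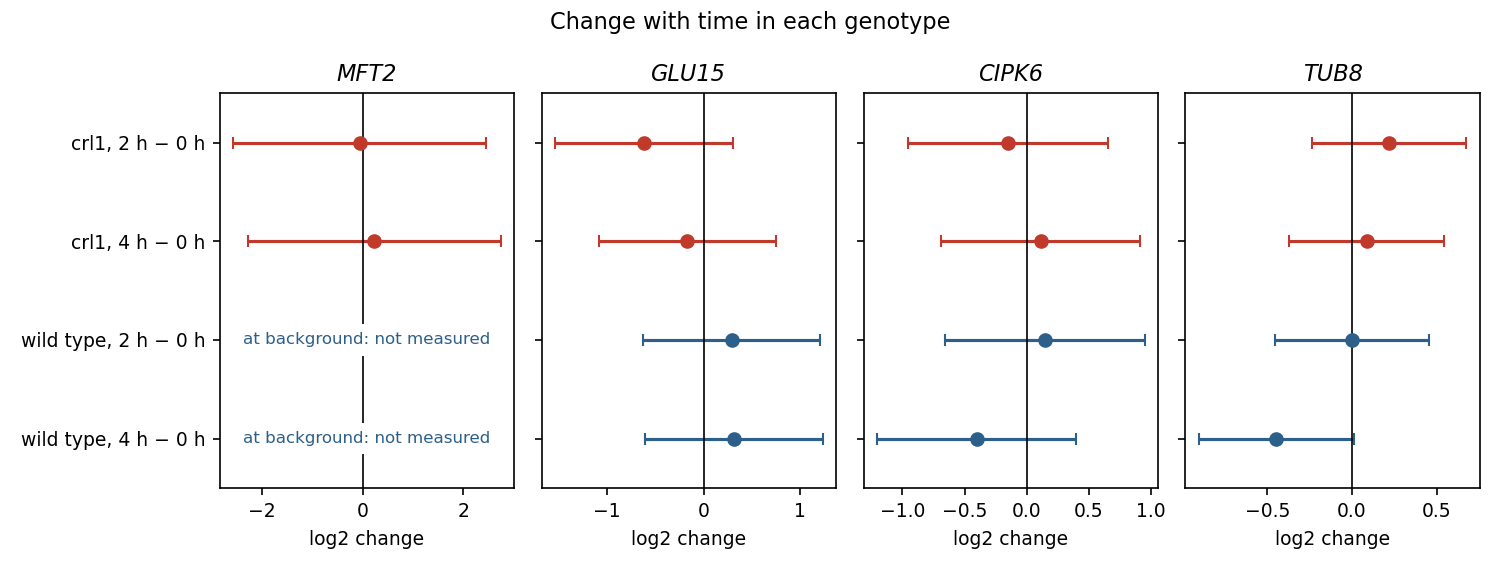
Change of log2 signal against 0 h for each gene, crl1 in red above wild type in blue, at 2 h and 4 h, with points for the fitted change and bars for its 95% interval (each panel has its own scale, and MFT2 in wild type, mostly at background, has no measured value). Every interval of this fit, which has no repetition term, includes 0, and the one nearest to leaving it out is TUB8 in wild type at 4 h, which runs from -0.91 to 0.01.

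The difference of the responses, crl1 minus wild type, was tested in the same model and did not pass for any of the 4 genes. At 2 h it was -0.91 ± 0.59 log2 for GLU15 (95% interval -2.21 to 0.39, adjusted p = 0.872), -0.30 for CIPK6 and 0.22 for TUB8. At 4 h it was 0.54 ± 0.29 for TUB8 (-0.11 to 1.18, adjusted p = 0.99), 0.51 for CIPK6 and -0.48 for GLU15. With repetition as a block the TUB8 interval at 4 h was 0.02 to 1.05 (unadjusted p = 0.0438, adjusted p = 0.872). For MFT2 the difference rests on wild-type signals at background and is not given. Over all kept probe sets 0 (0%) passed in either test, and 1831 at 2 h and 1090 at 4 h had an unadjusted p under 0.05. A gap that the choice of the genes required at every time also limits how far their responses can differ.

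No measured relative of the 4 genes passed the test of the genotype difference. Of the 7 other β-tubulins, 0 passed the test of the averaged difference of crl1 and wild type in either direction, against 0.455% of all kept probe sets higher and 0.925% lower. Their differences ran from -0.14 (TUB5) to 0.03 (TUB2) with a median of -0.09, beside 0.03 for all kept probe sets. Of the 7, 1 lay above 0 and 6 did not, where 45.9% of all kept probe sets lay below 0. Without wild type 2 h repetition 2, the array that stood apart, the median was 0.02 and 6 of 7 lay above 0. Leaving out the other wild-type array of 2 h gave -0.20 with 0 of 7. TUB5 had signals from 2511 to 3348 in crl1 and from 2605 to 5159 in wild type. TUB3 was at -0.04 ± 0.11 and TUB6 at -0.09 ± 0.13 (limma adjusted p = 0.904 and 0.777). The α-tubulins, which pair with β-tubulins in the microtubule, were at 0.09 for TUBA1 and -0.15 for TUBA, with 0 of 2 past the test, and without wild type 2 h repetition 2 both lay above 0.

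Of the 20 other CIPK kinases 0 passed in either direction and the median was 0.02. Of the 20, 11 lay above 0 and 9 did not, where 45.9% of all kept probe sets lay below 0. The range was -0.48 (CIPK7) to 0.70 (CIPK29). CIPK29 had signals from 20.5 to 27.2 in crl1. In wild type it was at 67.1 on 2 h repetition 2, the array that stood apart, and from 6.68 to 13.7 on the others. Without that array the median of the CIPK list was 0.01 with 10 of 20 above 0. Leaving out the other array of its group gave 0.06 with 14 of 20. The 3 whose probe sets were brightest were at 0.24 ± 0.13 for CIPK1, -0.11 ± 0.16 for CIPK14 and 0.37 ± 0.28 for CIPK23 (adjusted p from 0.372 to 0.771). CBL calcium sensors, the partners of these kinases, had 0 of 6 past the test and a median of 0.02, with CBL2 at 0.11, CBL3 at -0.11 and CBL6 at 0.02.

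Of the 10 other GH9 endoglucanases 0 passed and the median was -0.14. Of the 10, 3 lay above 0 and 7 did not, where 45.9% of all kept probe sets lay below 0. Leaving out the array that stood apart gave a median of 0.06 with 6 of 10 above 0, and leaving out the other array of its group gave -0.28 with 4 of 10. GLU11 was highest at 0.65 ± 0.19 (adjusted p = 0.121), GLU2 was at 0.30 ± 0.12 and GLU1 at -0.02 ± 0.13. GLU5, chosen after its values were seen, was lowest. Its signals ran from 0.289 to 6.36 in crl1, at or below background on 6 of 6 arrays, and from 6.93 to 71.0 in wild type, above background on all 6, so it was at least 1.73-fold lower in crl1 on average (adjusted p = 0.0827). The signal of 71.0 came from the array that stood apart, while GLU5 reached at most 25.8 on the other wild-type arrays. The fitted log2 difference of GLU5, which rests on crl1 signals at background, was -2.91. Leaving out single arrays moved this value to between -3.61 and -2.20, and dropping the array that stood apart gave -2.53. With 16 added to each signal it was -0.94. In the alternatives that kept all arrays, the limma adjusted p of GLU5 ran from 0.0606 to 0.104. GLU5 and GLU15 thus differed between the genotypes in opposite directions, GLU5 without passing the test.

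For MFT2 the relative that passed the signal filter was MFT1, the other MOTHER OF FT gene, with signals from 107 to 216 in crl1 and from 110 to 250 in wild type, which overlapped (-0.14 ± 0.18, adjusted p = 0.727). Genes of abscisic acid synthesis, breakdown and response, the hormone tied to MFT2 in seeds, had 0 of 17 past the test and a median near 0. They ran from -0.47 (ABA8OX2, an abscisic acid hydroxylase) to 1.07 (VP1, a seed transcription factor). VP1 was at or below background on 5 of 6 crl1 arrays and 6 of 6 wild-type arrays, so its value has no measured fold.

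**Figure D4:**
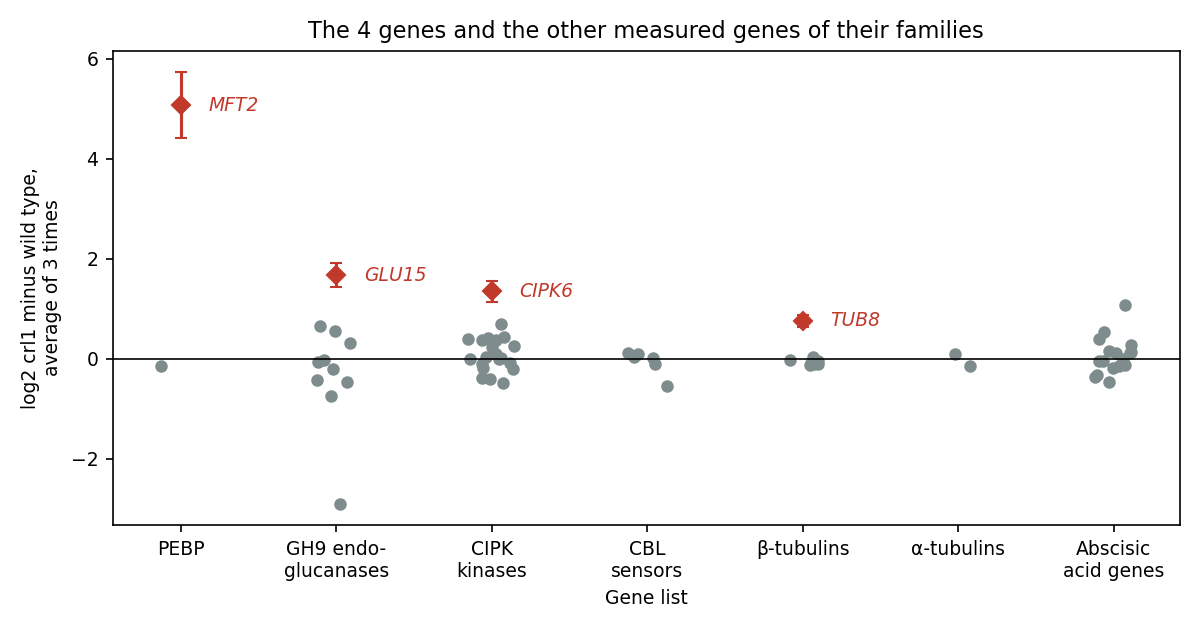
Log2 difference of crl1 minus wild type averaged over the 3 times for the 4 genes (red diamonds with SE bars) and the other measured genes of their families, partners or hormone (grey points, 1 per gene). Grey points of the β-tubulins run from -0.14 to 0.03 below TUB8 at 0.76, the diamond of MFT2 rests on wild-type signals mostly below background, and the low grey point of the endoglucanases is GLU5, whose crl1 signals were at background.

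Changes with time in these families gave 1 call among 63 genes and 11 comparisons, 693 tests in all. In the comparison of that call 0.753% of the kept probe sets were called lower, so 1 call among the 63 genes is near the background. CIPK17 was lower at 4 h than at 2 h, averaged over the genotypes, by -1.19 ± 0.24 log2 (SE, n = 4 arrays per time, limma adjusted p = 0.0483). Its signals in crl1 were 186 and 168 at 0 h, 354 and 375 at 2 h and 220 and 147 at 4 h. In wild type they were 247 and 187 at 0 h, 335 and 252 at 2 h and 163 and 77.6 at 4 h. Both genotypes had their highest CIPK17 mean at 2 h. CIPK17 passed in 6 of 19 alternatives, with adjusted p from 0.0114 to 0.185, and kept its sign in all 19. Leaving out the array that stood apart gave an adjusted p of 0.0605. With repetition as a block 3 list genes passed in this comparison, 1 higher and 2 lower.

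Chromosomal neighbours were examined with the gene order of the RefSeq table, used for names and order only. For each of the 4 genes the 3 nearest measured genes on each side were taken, 24 in all. The neighbours of MFT2 ran from -0.16 to 0.42 in the averaged difference, those of CIPK6 from -0.17 to 0.26 and those of TUB8 from -0.13 to 0.59, with 0 past the test. Around GLU15 they ran from -0.71 to 0.46, and LOC4345459 was lower in crl1 (-0.71 ± 0.14, limma adjusted p = 0.0324), a direction opposite to that of GLU15. This is 1 call among 24 neighbours, beside 0.925% of all kept probe sets called lower. It is named because it passed, and was chosen after its values were seen. It passed in 10 of 19 alternatives (adjusted p from 0.0103 to 0.122).

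Across the 12 arrays the log2 signals of the 4 genes correlated with each other with Pearson r from 0.723 (GLU15 with CIPK6) to 0.891 (MFT2 with GLU15), a description that holds the shared genotype gap. After the mean of each genotype was subtracted, r ran from -0.371 (MFT2 with CIPK6) to 0.404 (MFT2 with GLU15). The wild-type signals of MFT2, mostly at background, enter its r as they are. Among the pairs without MFT2 the same value ran from -0.332 (GLU15 with CIPK6) to 0.350 (CIPK6 with TUB8). Within the genotypes the pairs of genes thus had r of both signs.

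Among 2304 genes with a name of their own, those most like each of the 4 over the 12 arrays were found by Pearson r, and all of the points share the genotype split. For MFT2 the wild-type signals below background enter r as they are. For MFT2 they were 4CL (r = 0.902), the phenylpropanoid enzyme 4-coumarate-CoA ligase, BAT1 (0.890), HACD (0.871), JAZ3 (0.866), a jasmonate signalling repressor, and Rurm1 (0.853). For GLU15 they were MPH1 (0.889), a MYB factor, 4CL (0.881), BGLU13 (0.803), a β-glucosidase, ILL8 (0.795), named for auxin conjugate hydrolases, and Pht1;12 (0.793), a phosphate transporter. Signals of Pht1;12 ran from 7.25 to 25.2 in crl1 and from 5.70 to 8.80 in wild type, near the array backgrounds of 5.83 to 18.5. For CIPK6 they were the auxin response factor ARF14 (0.910), 4CLL7 (0.908), BGLU13 (0.891), BGLU28 (0.882) and ILL8 (0.881). 4CL was thus among the 5 for MFT2 and GLU15, and BGLU13 and ILL8 among the 5 for GLU15 and CIPK6.

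TUB8 was most like ARF2 (r = 0.923), an auxin response factor, MPH1 (0.915), CESA5 (0.912), BURP3 (0.912) and GLP2 (0.888). CESA5 is a cellulose synthase of the primary wall, with signals from 676 to 1013 in crl1 and from 448 to 836 in wild type, which overlapped. With the genotype means subtracted, r of TUB8 and CESA5 was 0.911, the highest among the 2304 genes, so that their likeness lay in the movement inside each genotype as well. For 4CL and MFT2 the same value was 0.651, and for ILL8 and GLU15 it was -0.270.

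Tissue markers were read beside these results. The leaf markers RBCS, CAB2R and RCA summed to 8069 to 11781 in crl1 and 9766 to 17919 in wild type, and CAB2R made up most. RBCS was lower in crl1 without overlap, at 807 to 1333 beside 1372 to 2243 in wild type. RCA, at 1086 to 3341 in crl1 and 2678 to 4663 in wild type, overlapped. CAB2R, at 5306 to 7184 in crl1 and 4868 to 11198 in wild type, did too. The shoot meristem gene FON1 was above background on all 12 arrays. Of 8 root markers, whose sum was 1230 to 2023 in crl1 and 1101 to 1902 in wild type, LSI1 made up most. PIN2, IRT1, WOX9 and EXPB18 were each at or below background on 4 of 6 crl1 arrays and 0 of 6 wild-type arrays. The other root markers overlapped between the genotypes, with LSI1 at 956 to 1608 in crl1 and 795 to 1477 in wild type, LSI2 at 94.2 to 273 in crl1 and 56.5 to 175 in wild type, SHR1 at 41.3 to 57.0 in crl1 and 42.2 to 72.7 in wild type, and SCR1 at 15.9 to 40.6 in crl1 and 20.2 to 33.5 in wild type. The part of the tissue markers in the differences of the 4 genes was not tested. For MFT2, known from seeds, the 9 seed markers summed to 214 to 426 in crl1 and 241 to 391 in wild type, and the storage protein genes GLUA3, GLUB4 and RAG1 were at or below background on all 12 arrays. GLUA1, another storage protein gene, ran from 6.54 to 18.8 in crl1, above background on 2 of 6 arrays, and from 0.357 to 7.71 in wild type, at or below it on 6 of 6. In each repetition at each time GLUA1 was higher in crl1. The remaining seed markers overlapped between the genotypes, LEA3 at 18.4 to 56.7 in crl1 and 45.8 to 108 in wild type. RAG2 and GLUB5 were highest on crl1 0 h repetition 1, at 157 and 53.4, and next on crl1 4 h repetition 1, at 105 and 31.4. In wild type they reached at most 43.6 and 15.9, and no other crl1 array exceeded these values. MFT2 was at 57.3 on crl1 0 h repetition 1 and at 110 on crl1 4 h repetition 1. For TUB8, known from anthers, the 5 anther markers summed to 255 to 405 in crl1 and 214 to 344 in wild type. TDR, a regulator of the tapetum, was at or below background on 6 of 6 crl1 arrays and 5 of 6 wild-type arrays, and EAT1 on 5 of 6 of each. GAMYB ran from 131 to 274 in crl1 and from 68.0 to 170 in wild type, and in each repetition at each time it was higher in crl1. CYP703A3 was at or below background on 4 of 6 crl1 arrays and 6 of 6 wild-type arrays, and PSS1 ran from 94.9 to 147 in crl1 and from 118 to 174 in wild type.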

How the data were processed

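RNA of 12 extracts was measured on the Affymetrix Rice Genome Array, 1 array each. Each deposited value is the MAS5 signal of a probe set, an intensity on a linear scale that the authors made in Affymetrix Expression Console, per the submitters' processing notes (version not given in the sources used here). With the top and bottom 2% of values left out, each array averages 100, which is the authors' scaling as the values show it. Detection calls were not used here.

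Signals were taken to log2 with nothing added and no further scaling. Rice probe sets above their array's median on at least 2 of 12 arrays were kept, and 123 Affymetrix controls and 64 reporter probe sets were left out. The platform annotation names genes for 22436 probe sets with exactly 1 gene, 95 list several, and 34663 rice probe sets have none. Names were updated through the RefSeq gene table, which was used for names and gene order only.

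The model, from limma 3.58.1 under R 4.3.3 (lmFit and eBayes with trend), gave each of the 6 groups its own mean over all kept probe sets. It had 6 residual degrees of freedom, and the prior added a median of 4.79. P-values are two-sided and Benjamini-Hochberg adjusted over the kept probe sets within each comparison, with a threshold of 0.05. Errors are model standard errors, and the number of arrays limits precision. The calculation was tested on simulated data. The members and gene lists were chosen with earlier results of these data known. Named genes are the 4 members, list members past the threshold, the 3 brightest of each family list and the 5 named genes of highest correlation with each member, 1 probe set per gene, the brightest. Genes given as the lowest or highest of a list were picked after their values were seen. Any other gene is marked where it appears.

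The series describes repetitions of the experiment, so same-numbered arrays share one. Their deviations from group means correlated above 0.1 in 11 of 15 pairs of groups, from 0.0078 to 0.249, with a median over bright probe sets of 0.521 within a genotype and 0.142 between genotypes. Arrays of a genotype are therefore not fully independent. Alternatives were repetition as a block, quantile normalization, median centring, no filter, a filter at the 75th percentile, 16 added to each signal, array weights and leaving out each array.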

Additional observations from a re-analysis of the deposited data

Results flagged for a closer look

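Each gene was looked at for 2 h against 0 h, 4 h against 0 h and 4 h against 2 h, in either direction. Among all of these, 3 changes with time went one way on both crl1 repetitions and the opposite way on both wild-type repetitions. GLU15 between 2 h and 0 h changed by -1.05 and -0.19 log2 in crl1 and by 0.32 and 0.25 in wild type, a difference of -0.91 between the genotypes (limma adjusted p = 0.872). Of the kept probe sets 6.61% had crl1 lower and wild type higher on all 4 changes in this way, and 9.17% had the reverse.

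CIPK6 between 4 h and 2 h changed by 0.04 and 0.49 log2 in crl1 and by -0.62 and -0.48 in wild type, a difference of 0.81 that was not tested. This order held in 5.2% of the kept probe sets, and the reverse in 5.82%. TUB8 between 4 h and 0 h changed by 0.10 and 0.08 log2 in crl1 and by -0.36 and -0.54 in wild type, a difference of 0.54 (limma adjusted p = 0.99). That order held in 10.2% of the kept probe sets, and the reverse in 6.09%. For MFT2 no pair of times gave opposite changes on all 4.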

How the results depend on the processing

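With 16 added to each signal the genotype difference of MFT2 was 2.96 at 0 h, 2.62 at 2 h, 2.80 at 4 h and 2.79 on average, a scale on which near-background signals count less. Repetition as a block changed no call of the 4 genes, though it took 4 unadjusted p of TUB8 below 0.05 and moved counts over all probe sets, such as 1037 against 449 for the averaged difference, 599 against 301 for 4 h against 2 h and 261 against 148 for 4 h against 0 h. Median centring moved the median of all kept probe sets at 2 h against 0 h to -0.17 (-0.0054 as deposited), and small changes with time turned sign. These were MFT2 at 2 h averaged (-0.068 quantile, -0.087 centred) and in wild type (-0.049 quantile), GLU15 at 4 h averaged (-0.046 centred) and at 4 h against 2 h in wild type (-0.060 quantile), CIPK6 at 2 h averaged (0.041 quantile) and at 4 h in crl1 (-0.017 centred), and TUB8 at 2 h averaged (-0.055 centred), at 4 h in crl1 (-0.041 centred) and at 2 h in wild type (-0.030 quantile, -0.12 centred, -2e-04 with 16 added). None of these passed. Over the 7 family lists the calls at 4 h against 0 h were 1 higher and 2 lower with the block and 2 lower with array weights, against 0 as reported. At 4 h against 2 h they were 1 higher and 2 lower with the block, 2 lower with the filter at the 75th percentile or 16 added, and 0 lower with centring, no filter or array weights, against 1 as reported. Leaving out 1 array gave these ranges. For MFT2 the genotype difference at 2 h ran from 3.17 to 7.33, the averaged change from -0.96 to 1.12 at 2 h and from -0.34 to 1.74 at 4 h against 2 h, the crl1 change from -1.19 to 1.07 at 2 h, -0.90 to 1.36 at 4 h and -0.12 to 0.71 at 4 h against 2 h, the wild-type change from -1.86 to 2.29 at 2 h and -0.97 to 3.18 at 4 h against 2 h, and the difference of responses from -2.35 to 1.80 at 2 h and -2.21 to 0.043 at 4 h. Those of MFT2 that use wild type rest on signals at or below background and measure no change. The 3.18 is 1 of them (adjusted p = 0.0384), without wild type 2 h repetition 1, where the array that stood apart is alone in its group. For GLU15 the genotype difference at 2 h ran from 0.57 to 1.88, the averaged change from -0.49 to 0.16 at 2 h, -0.16 to 0.31 at 4 h and -0.091 to 0.56 at 4 h against 2 h, the crl1 change from -1.27 to 0.038, -0.42 to 0.089 and -0.21 to 1.10 in the same order, and the wild-type change from -0.16 to 0.78 at 4 h and -0.45 to 0.50 at 4 h against 2 h. For CIPK6 the genotype difference ran from 0.81 to 1.74 at 0 h and 0.49 to 1.47 at 2 h, the averaged change from -0.25 to 0.24 at 2 h, -0.38 to 0.087 at 4 h and -0.39 to 0.10 at 4 h against 2 h, the crl1 change from -0.64 to 0.34, -0.15 to 0.38 and -0.23 to 0.75, the wild-type change from -0.32 to 0.61 at 2 h and -0.87 to 0.062 at 4 h, and the difference of responses at 2 h from -0.79 to 0.19. For TUB8 the genotype difference at 0 h ran from 0.29 to 0.73, the crl1 change at 4 h against 2 h from -0.29 to 0.030 and the wild-type change at 2 h from -0.22 to 0.22. Calls of the averaged genotype difference ran from 0 to 1 higher and 0 to 1 lower for endoglucanases, 0 to 3 higher for CIPK kinases, and 0 to 1 higher and 0 to 2 lower for the abscisic acid genes. Over the 7 lists they ran from 0 to 7 higher and 0 to 2 lower at 2 h, 0 to 1 lower at 4 h, and 0 to 5 higher and 0 to 7 lower at 4 h against 2 h. The highest of these counts came without wild type 2 h repetition 1. The causes of these shifts were not tested. With 2 arrays per group, only large changes of MFT2 could be detected, and its wild-type signals at background bound its fold from below only.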

Other observations

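In the difference of responses at 2 h, crl1 minus wild type, 7 of the 7 other β-tubulins lay below 0, as 42.1% of all kept probe sets did. Their median was -0.44, beside 0.10 for all kept probe sets, and 0 of 7 passed. This rests on 1 array, since without wild type 2 h repetition 2, which stood apart, 5 of 7 lay above 0 and the median was 0.01.

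Among the 10 other GH9 endoglucanases the change in wild type at 4 h against 2 h was below 0 in 10 of 10, as in 45.1% of all kept probe sets, with a median of -0.49, beside 0.06 for all kept probe sets, and 0 of 10 passed. This too rests on wild type 2 h repetition 2, without which 5 of 10 lay below 0 and the median was 0.08.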
